A study of Mus musculus with 16 samples.

Results

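The genes described here are 10 secretory genes of the goblet cell, the mucus-producing cell of the colonic epithelium: Muc2, Fcgbp, Zg16, Tff3, Spink4, Agr2, Galnt12, Spdef, Sytl2 and Bcas1. They were taken by name from a table of 56268 genes, and all 10 passed the filter on low values, which kept 13255 genes. The 16 RNA-seq libraries, 4 in each of 4 groups, were made from epithelial cells of the mouse colon. Control mice (WT in the labels) carried the Villin-Cre transgene, which drives Cre recombinase in the intestinal epithelium, and conditional knockout mice (cKO) carried floxed Rictor with Villin-Cre, so all groups share the Cre. Rictor encodes a core component of the kinase complex mTORC2, which signals to AKT. Mice of each genotype were kept on normal water or given 3% dextran sulfate sodium (DSS), which injures the colonic epithelium. Age, sex, strain and length of DSS treatment are not in the labels. Nor do these tie each library to its own animal, so a p-value here reflects spread between samples that may be technical. The study's stated question was the role of mTORC2 signaling in colitis.

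Goblet cells store mucin in granules and release it to build the mucus layers that keep bacteria away from the epithelium. The gel is a network of the mucin MUC2, which is folded in the endoplasmic reticulum, decorated with O-linked sugars in the Golgi and joined by other secreted proteins such as FCGBP, ZG16 and TFF3. The transcription factor ATOH1 commits progenitors to the secretory lineage, and SPDEF acts after it in goblet cell maturation. Loss or emptying of goblet cells is a known feature of DSS colitis. In bulk RNA of this kind, fewer goblet cells and less RNA per goblet cell cannot be told apart.

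The 250 bases upstream of the start site are printed for the regulator Spdef and for Agr2, Fcgbp and Muc2. They are printed because these were the 4 of the 10 genes matched by symbol in the RefSeq promoter table (build GRCm38.p6, the assembly of mm10). Each is written in the direction of transcription. Capitals mark every match to CANNTG, the E-box type bound by basic helix-loop-helix factors such as ATOH1 (palindromic at its fixed bases, so 1 match covers both strands).
Spdef, chr17:27728952-27729201, minus strand: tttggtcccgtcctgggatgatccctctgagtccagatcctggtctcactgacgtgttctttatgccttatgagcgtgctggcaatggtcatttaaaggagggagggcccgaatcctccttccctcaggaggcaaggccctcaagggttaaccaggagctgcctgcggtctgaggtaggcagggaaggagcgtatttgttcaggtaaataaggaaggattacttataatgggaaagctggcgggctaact
Agr2, chr12:35992675-35992924, plus strand: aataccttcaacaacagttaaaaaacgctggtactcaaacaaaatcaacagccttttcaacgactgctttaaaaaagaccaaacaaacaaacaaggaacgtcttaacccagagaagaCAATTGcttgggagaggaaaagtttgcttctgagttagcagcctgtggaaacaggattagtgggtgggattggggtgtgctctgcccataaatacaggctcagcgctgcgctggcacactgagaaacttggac
Fcgbp, chr7:28070986-28071235, plus strand: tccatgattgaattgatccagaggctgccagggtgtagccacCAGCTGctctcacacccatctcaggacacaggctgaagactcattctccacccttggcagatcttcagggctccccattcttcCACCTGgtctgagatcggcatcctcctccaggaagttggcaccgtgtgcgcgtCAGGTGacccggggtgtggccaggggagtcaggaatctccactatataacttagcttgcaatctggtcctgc
Muc2, chr7:141690090-141690339, plus strand: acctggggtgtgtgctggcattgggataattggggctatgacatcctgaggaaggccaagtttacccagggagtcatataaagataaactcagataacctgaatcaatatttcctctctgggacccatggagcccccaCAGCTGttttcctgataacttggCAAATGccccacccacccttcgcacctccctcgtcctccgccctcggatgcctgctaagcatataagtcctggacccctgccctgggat

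The Fcgbp window held 3 matches to CANNTG, that of Muc2 held 2 and that of Agr2 held 1, while the Spdef window held none of these letters. A match is common: 66.2% of the 32851 windows of this length in the table held at least 1. GGAT, the core that SPDEF prefers among ETS family factors, was matched on either strand 5 times in its own window, 4 times in that of Muc2, and 2 times each in those of Agr2 and Fcgbp, with no overlap with a CANNTG match, and 74.1% of all windows held it. The forkhead motif TGTTTAC was matched in none of the 4 windows and in 3.17% of all. These matches describe the windows and do not show binding.

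Libraries held 13911823 to 16414914 reads, recovered from the deposited FPKM values (fragments scaled by gene length and by library total), and mitochondrial genes took 7.66 to 15.1% of reads on water and 4.74 to 7.34% after DSS. Rictor was at 2.47 ± 0.24 FPKM in cKO against 2.80 ± 0.44 in control libraries on water (mean ± SD, n = 4 each; limma adjusted p = 0.582) and at 2.51 ± 0.46 against 3.63 ± 0.57 FPKM after DSS (adjusted p = 0.0761), over the whole gene, so transcripts that lack only the floxed exons still count. The absorptive marker Vil1 stood at 233 ± 18.2 FPKM in control libraries on water, as in epithelium. cKO_DSS 3 and 4 differed from cKO_DSS 1 and 2 in GC content: deviations from the gene means correlated with it, across genes that are not independent of each other, at 0.297 and 0.289 against -0.217 and -0.298. The same measure ran from 0.141 to 0.42 in control libraries on water and from -0.386 to 0.00888 in control libraries after DSS. The 4 Y-linked genes Ddx3y, Eif2s3y, Kdm5d and Uty had 0 to 1856 reads in the water libraries and 2681 to 4533 in the DSS libraries. The Y-linked level thus moved with treatment, and the effects of sex and DSS cannot be told apart in the DSS comparisons.

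On water the control libraries gave a clear order of levels, in FPKM, which is scaled by length. Spink4 led at 1031 ± 174 FPKM (mean ± SD, n = 4), the 27th highest mean of the genes kept. Agr2 followed at 577 ± 99.8, Fcgbp at 448 ± 246, Tff3 at 442 ± 91.6 and Zg16 at 354 ± 101 FPKM, and the ranges of these neighbours overlapped. Galnt12 (50.3 ± 2.76), Spdef (37.9 ± 3.29) and Bcas1 (11.7 ± 2.65) came next with ranges that did not overlap, and Sytl2 (4.98 ± 1.46) and Muc2 (3.32 ± 1.80) were lowest. The 10 genes made up 0.574 to 1.06% of the summed FPKM in control libraries on water and 0.887 to 1.26% in cKO libraries after DSS.

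The low level of Muc2 goes with an incomplete gene model. In GENCODE M21, whose union of exons has the same length as the deposited one (7127 bases), the locus (mm10 chromosome 7, 141690340 to 141754693) is tagged as fragmented and holds 8 transcripts, the longest of 2926 bases. FPKM of Muc2 is therefore not compared with the other genes below, and its values rest on 150 to 998 reads per library. Bcas1 is overlapped by the antisense genes Bcas1os1 and Bcas1os2, which reached at most 2.07 FPKM. Galnt12 is overlapped by the pseudogene Gm12424, at most 5.08 FPKM. The counting is not stated to use strand.

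**Figure D1:**
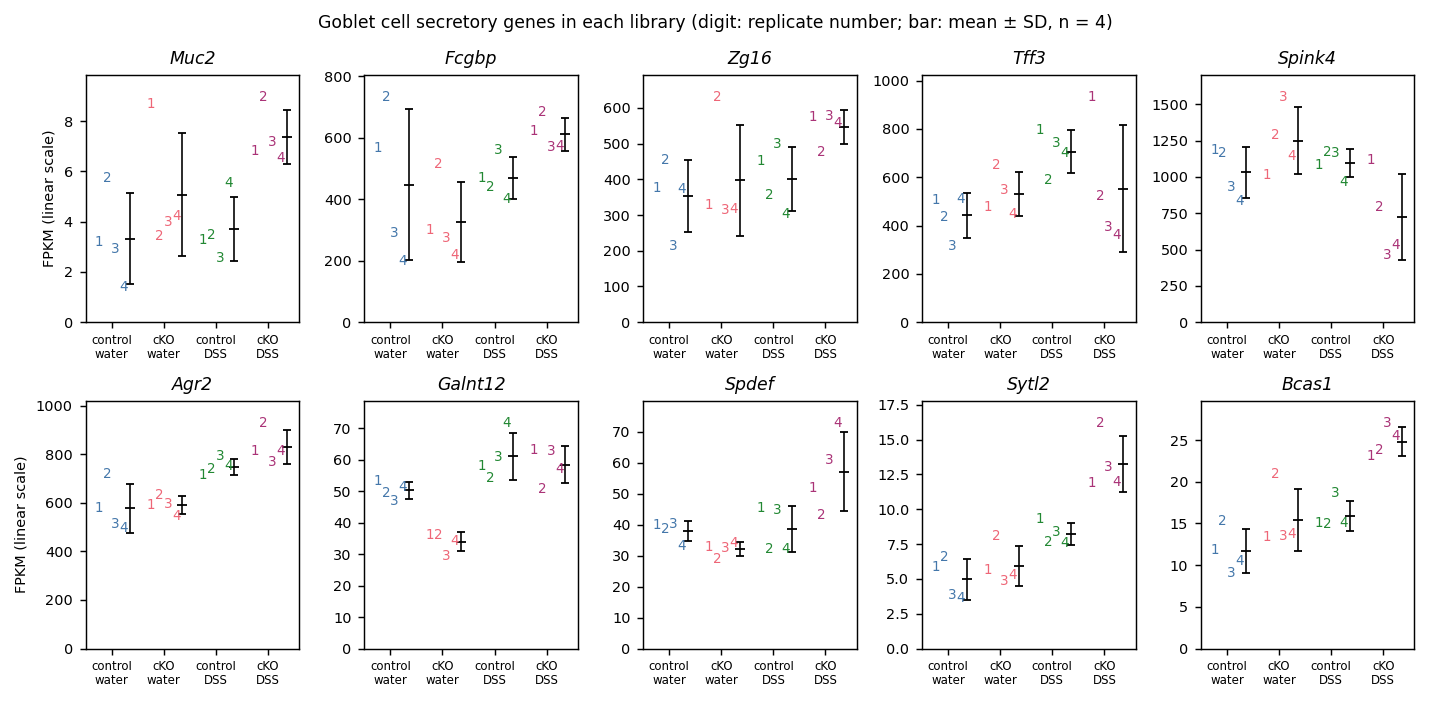
FPKM of the 10 genes on linear axes, 1 panel per gene, in control and cKO libraries on water and after DSS. Digits are replicate numbers and bars are the mean ± SD of 4 libraries. Galnt12 in cKO on water lies below every other library, Bcas1 and Sytl2 in cKO after DSS lie above every other library, and Spink4 in cKO_DSS 3 and 4 is at 461 and 529 FPKM.

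Among the secreted products, Muc2, the gel-forming mucin, was at 3.18, 5.75, 2.93 and 1.41 FPKM in control libraries 1 to 4 on water and at 8.70, 3.43, 3.97 and 4.21 FPKM in cKO. After DSS it was at 3.26, 3.49, 2.56 and 5.53 FPKM in control and 6.81, 8.96, 7.18 and 6.52 FPKM in cKO. The DSS groups did not overlap, while cKO library 1 on water reached the level of the cKO libraries after DSS. Fcgbp, which encodes a large protein bound to the mucin network, was at 568, 733, 289 and 200 FPKM in control and 302, 516, 273 and 218 FPKM in cKO on water. With DSS the values were 470, 441, 562 and 402 FPKM in control and 621, 685, 571 and 572 FPKM in cKO. Control libraries on water spread widely (coefficient of variation 55.0%), and every cKO library after DSS was above every cKO library on water.

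Zg16, a lectin that binds Gram-positive bacteria and keeps them from the epithelium, was at 375, 454, 213 and 372 FPKM in control and 328, 630, 314 and 316 FPKM in cKO on water. In the DSS libraries it stood at 451, 355, 498 and 302 FPKM in control and 574, 475, 577 and 558 FPKM in cKO. Library 2 of cKO on water was higher than any DSS library, and the groups overlapped in each of the 4 comparisons. Tff3, a trefoil peptide that aids repair of the epithelial surface, was at 507, 437, 314 and 510 FPKM in control and 476, 650, 546 and 447 FPKM in cKO on water. After DSS it was at 796, 588, 741 and 700 FPKM in control and 932, 523, 394 and 363 FPKM in cKO. Control libraries after DSS were all above those on water, whereas cKO after DSS held both the highest value of all and 2 of the 3 lowest.

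Spink4, a small Kazal-type protein of goblet cell granules, was at 1188, 1166, 932 and 837 FPKM in control and 1016, 1291, 1549.9 and 1146 FPKM in cKO on water. With DSS the values were 1082, 1169, 1164 and 968 FPKM in control and 1116, 794, 461 and 529 FPKM in cKO. The 3 lowest of the 16 values were cKO_DSS 2, 3 and 4, while cKO_DSS 1 lay within the range of the control libraries after DSS.

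Agr2, a protein disulfide isomerase of the endoplasmic reticulum needed to make MUC2, was at 579, 718, 514 and 498 FPKM in control and 591, 634, 596 and 547 FPKM in cKO on water. In the DSS libraries it stood at 713, 738, 792 and 754 FPKM in control and 814, 928, 768 and 813 FPKM in cKO. All cKO libraries after DSS were above those on water, and control library 2 on water reached the control DSS range. Galnt12, a transferase that attaches the first sugar of O-linked chains, was at 53.3, 49.5, 46.8 and 51.4 FPKM in control and 36.1, 36.1, 29.5 and 34.3 FPKM in cKO on water. After DSS it was at 57.9, 54.3, 60.9 and 71.6 FPKM in control and 63.2, 50.7, 62.9 and 57.002 FPKM in cKO. Values were low in cKO on water and overlapped between genotypes after DSS.

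Spdef was at 39.8, 38.5, 40.1 and 33.03 FPKM in control and 32.8, 28.8, 32.5 and 33.98 FPKM in cKO on water. With DSS the values were 45.5, 32.1, 44.8 and 31.98 FPKM in control and 51.9, 42.96, 60.8 and 72.7 FPKM in cKO. The cKO libraries after DSS were above those on water, with cKO_DSS 4 the highest. Sytl2, a synaptotagmin-like effector of RAB27 that works in granule release, was at 5.85, 6.57, 3.86 and 3.63 FPKM in control and 5.63, 8.04, 4.86 and 5.25 FPKM in cKO on water. In the DSS libraries it stood at 9.27, 7.64, 8.37 and 7.56 FPKM in control and 11.9, 16.2, 13.04 and 11.9 FPKM in cKO. Bcas1, a marker of goblet cells in the colon, was at 11.9, 15.2, 9.004 and 10.6 FPKM in control and 13.3, 20.9, 13.5 and 13.7 FPKM in cKO on water. After DSS it was at 15.04, 14.9, 18.7 and 15.04 FPKM in control and 23.1, 23.8, 26.997 and 25.4 FPKM in cKO. For both genes each cKO library after DSS exceeded all 12 other libraries.

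DSS in cKO mice gave the most calls. Galnt12, Spdef, Sytl2, Bcas1 and Agr2 rose and Spink4 fell. A gene was called at an adjusted p under 0.05 in limma, over all 13255 genes kept. In this comparison 14.7% of all genes were called, 8.07% higher and 6.64% lower, against 5 higher and 1 lower of the 10. Sytl2 rose 2.23-fold by group means (log2 difference +1.05 ± 0.17 SE, adjusted p = 0.000975). Log2 differences are of log2(FPKM + 1), a scale that shrinks the change of genes near 1 FPKM. Spdef rose 1.78-fold (+0.79 ± 0.15 SE, adjusted p = 0.00349), Galnt12 1.72-fold (+0.76 ± 0.10 SE, adjusted p = 0.000336), Bcas1 1.62-fold (+0.68 ± 0.15 SE, adjusted p = 0.00826) and Agr2 1.40-fold (+0.49 ± 0.11 SE, adjusted p = 0.0109). All 4 DSS values of each of these 5 genes were above all 4 water values. Groups lay apart in that direction for 6 of the 10 genes, Fcgbp being the other, against 10.1% of all genes. The 10 genes were chosen with earlier results of these data known, so these shares are descriptions and not a test.

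Spink4 was lower in cKO after DSS, at 725 ± 298 against 1251 ± 229 FPKM (log2 difference -0.86 ± 0.23 SE, adjusted p = 0.0217). Library cKO_DSS 1, at 1116 FPKM, lay within the water range, and without cKO_DSS 3 and 4 the difference was -0.39 (adjusted p = 0.216). The call of Spink4 was also lost on leaving out cKO 2 or 3, or cKO_DSS 3 or 4, alone (adjusted p between 0.0512 and 0.0671). It was lost too with the length correction (-0.71, adjusted p = 0.0529), with no filter (adjusted p = 0.0855) and on fitting only the 8 libraries compared (adjusted p = 0.0808). Spink4 (477 bases) and Tff3 (493 bases) have the shortest models of the 10. Fcgbp had a log2 difference of +0.97 ± 0.33 SE and did not pass (adjusted p = 0.0631), nor did Zg16 at +0.52 ± 0.25 SE or Muc2 at +0.53 ± 0.29 SE. Tff3 was at -0.03, with a 95% interval from -0.56 to +0.50. Without cKO_DSS 3 and 4, Bcas1 was at +0.60 (adjusted p = 0.0571), and with quantile normalization Agr2 was at +0.35 (adjusted p = 0.126; with no filter, adjusted p = 0.064). When the Y-linked level was added to the limma model none of the 10 was called, and 94 of all 13255 genes were, against 1950 without it. Sytl2 was then at +0.48 (adjusted p = 0.285), Bcas1 at +0.19 (adjusted p = 0.737) and Agr2 at +0.24 (adjusted p = 0.588). Spdef and Galnt12 stayed nearer the threshold (adjusted p = 0.0747 and 0.0855), and both were called in 30 of 31 alternatives.

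With DSS in control mice 4 of the 10 genes rose and none fell: the trefoil peptide gene Tff3, Sytl2, Bcas1 and Agr2. All 10 differences were above 0, as were 49.4% of those of all genes, and their median was +0.25 against -0.01 over all genes. The smaller ones did not keep their sign. Muc2 (-0.07), Fcgbp (-0.09) and Spdef (-0.05) were below 0 without control 4, and Zg16 (-0.02) without control 3. Spink4 (-0.03) was below 0 without control 4 and control_DSS 2 together. Of all genes, 28.5% were called, 15.0% higher and 13.5% lower, so calls were common. Tff3 went from 442 ± 91.6 to 706 ± 88.0 FPKM (1.599-fold; log2 difference +0.69 ± 0.25 SE, adjusted p = 0.0484), with the groups apart. Sytl2 went from 4.98 ± 1.46 to 8.21 ± 0.79 FPKM (+0.65 ± 0.17 SE, adjusted p = 0.0116), also with the groups apart. Agr2 (+0.39 ± 0.11 SE, adjusted p = 0.0215) and Bcas1 (+0.44 ± 0.15 SE, adjusted p = 0.0436) rose with 1 control library on water, number 2, inside the range of the DSS libraries.

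Galnt12 in control was at +0.27 ± 0.10 SE and lay just beyond the threshold (adjusted p = 0.0545), with the groups apart; groups lay apart upward for 3 of the 10 genes and for 15.5% of all genes. Spdef, at 37.9 ± 3.29 on water and 38.6 ± 7.55 FPKM after DSS, had a difference of +0.01 with a 95% interval from -0.31 to +0.33. With a GC correction Spdef was at +0.37 (adjusted p = 0.048) and Galnt12 at +0.47 (adjusted p = 0.00573). These calls were fragile except that of Sytl2, which passed without each single library. Tff3 was lost without control 3 (+0.54, adjusted p = 0.142), and without control 2 or 4, any of the 4 control_DSS libraries, any of the 4 cKO libraries on water or cKO_DSS 2 (adjusted p from 0.0525 to 0.117). Bcas1 was lost without control 3 (+0.33, adjusted p = 0.133), and without control 1 or 4, any control_DSS library, cKO 4 or cKO_DSS 4 (adjusted p from 0.0509 to 0.104). Agr2 was lost without control 3 or 4 (adjusted p = 0.0658 and 0.0652) and with the GC correction (+0.29, adjusted p = 0.0593). With no filter the 3 had adjusted p of 0.126, 0.0944 and 0.1002. Only 2 of the 10 were called with quantile normalization (3707 of all genes), and 2 with only the 8 libraries compared (3326 of all genes). Over all 31 alternatives Tff3 was called in 16, Bcas1 in 14, Agr2 in 22 and Sytl2 in 29. None of the 10 was called without control 4 and control_DSS 2 together (1452 of all genes) or with the Y-linked covariate (193 of all genes, against 3778). With that covariate Sytl2 was at +0.16 (adjusted p = 0.617).

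**Figure D2:**
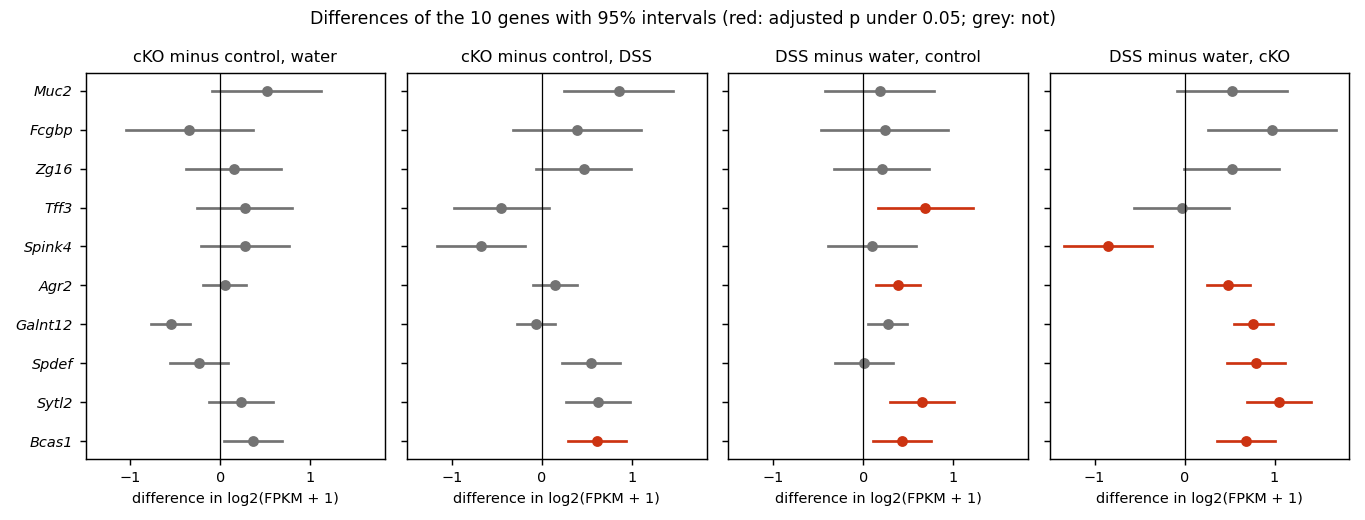
Differences in log2(FPKM + 1) of the 10 genes in 4 comparisons, with 95% intervals from the limma fit on 16 libraries; red marks genes past an adjusted p of 0.05. In cKO, Sytl2 (+1.05), Spdef (+0.79) and Galnt12 (+0.76) rose with DSS and Spink4 (-0.86) fell, while Spdef in control is at +0.01.

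Between genotypes after DSS, Bcas1 was the single gene of the 10 past the threshold, 1.56-fold higher in cKO at 24.8 ± 1.75 against 15.9 ± 1.83 FPKM (log2 difference +0.61 ± 0.15 SE, adjusted p = 0.0388). Of all genes 3.70% were called, 2.03% higher. Sytl2 (+0.62 ± 0.17 SE, adjusted p = 0.0502) and Spdef (+0.55 ± 0.15 SE, adjusted p = 0.0581) lay just beyond it. Muc2 was at 7.37 ± 1.09 against 3.71 ± 1.28 FPKM (+0.86 ± 0.29 SE, adjusted p = 0.106), and Spink4 at 725 ± 298 against 1096 ± 93.9 FPKM (-0.68 ± 0.23 SE, adjusted p = 0.109). The 4 cKO values of Muc2, Fcgbp, Sytl2 and Bcas1 were above all 4 control values, 4 of 10 genes against 5.12% of all genes.

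The call of Bcas1 was lost with no filter (adjusted p = 0.0845), without cKO_DSS 3 and 4 (+0.54, adjusted p = 0.273), without control 4 and control_DSS 2, and without cKO_DSS 2, 3 or 4 or control_DSS 1, 2 or 4 alone (adjusted p between 0.0515 and 0.113), with the difference between +0.57 and +0.63 in those 6. Sytl2 passed in 13 of 31 alternatives, with a difference between +0.53 and +0.698 over all of them. Agr2 (+0.15, 95% interval -0.10 to +0.39) and Galnt12 (-0.06, 95% interval -0.28 to +0.15) were not called. This comparison shares its control_DSS libraries with DSS in control and its cKO_DSS libraries with DSS in cKO.

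On water no gene of the 10 was called between genotypes in limma, 2 had an unadjusted p under 0.05, and limma voom on recovered reads also called 0. Of all genes 0.0905% were called. Galnt12 came nearest, at 33.998 ± 3.09 FPKM in cKO against 50.3 ± 2.76 FPKM in control, a ratio of 0.676 (log2 difference -0.55 ± 0.10 SE, adjusted p = 0.053). Its groups did not overlap, as held downward for 7.65% of all genes, and it passed in 5 of 31 alternatives, with adjusted p from 0.0144 to 0.166. Bcas1 was at +0.37 ± 0.15 SE (adjusted p = 0.233). The intervals of the widely spread genes were broad: Fcgbp was at -0.34 with a 95% interval from -1.05 to +0.36, and Muc2 at +0.51 with an interval from -0.09 to +1.12. Without cKO library 1, Muc2 was at +0.26 (adjusted p = 0.622) on water and at +0.78 (adjusted p = 0.0779) with DSS in cKO.

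The interaction, which asks whether the DSS difference itself differed between genotypes, was called for 0 of the 10 genes in limma and 0 in limma voom, while 3 had an unadjusted p under 0.05 and 0.151% of all genes were called. These were Spdef (+0.78 ± 0.21 SE, adjusted p = 0.0934), Galnt12 (+0.49 ± 0.14 SE, adjusted p = 0.0962) and Spink4 (-0.96 ± 0.33 SE, adjusted p = 0.131). The rise of Spdef in cKO is therefore not shown to differ from its value in control, which was +0.37 with a GC correction. Each of these 3 interactions passed in 2 of 30 alternatives. That of Spdef ran from +0.38 to +0.96 (limma adjusted p up to 0.415) and that of Galnt12 from +0.29 to +0.57 (up to 0.406). The Spink4 interaction ran from -1.19 to -0.49 (adjusted p up to 0.570). With sample quality weights 4 of the 10 passed, Spdef (+0.96), Galnt12 (+0.53), Spink4 (-1.16) and Tff3 (-1.05), but so did 3728 of the 13255 genes kept, against 20 in the fit without weights, while Spdef and Galnt12 passed without cKO_DSS 2 (adjusted p = 0.022 and 0.0301; 1240 of all genes) and Spink4 without cKO_DSS 1 (adjusted p = 0.0355; 393 of all genes). Agr2, which rose in both genotypes, had an interaction of +0.10 with a 95% interval from -0.25 to +0.44.

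**Figure D3:**
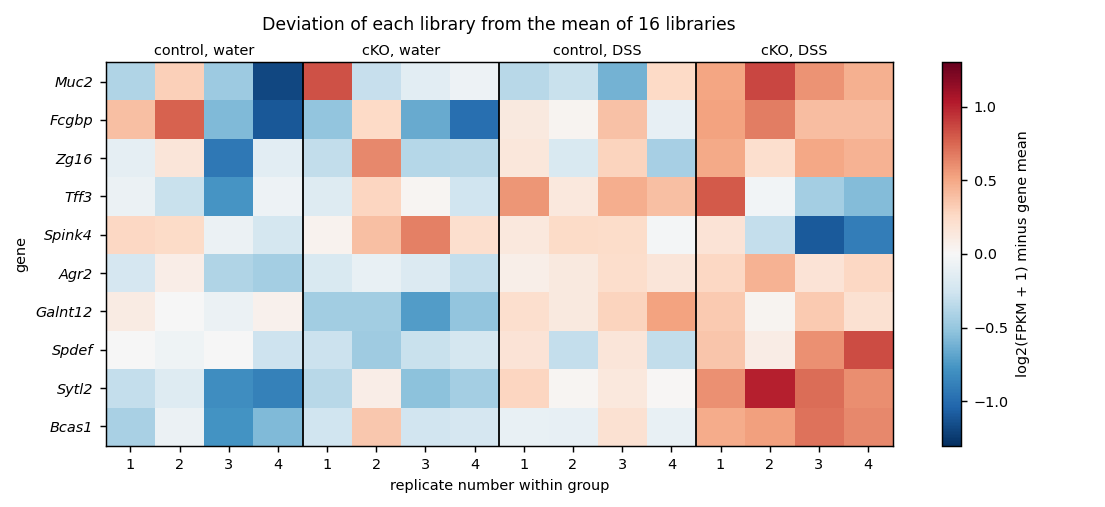
Deviation of each library from the gene's mean over 16 libraries, in log2(FPKM + 1); columns are libraries by group and replicate number, rows are genes. Spink4 and Tff3 are low in cKO_DSS 3 and 4, where Sytl2, Bcas1 and Spdef are high.

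Within groups the genes did not vary as 1 block. After each gene's group means were subtracted, 36 of the 45 pairs had a correlation above 0 over the 16 libraries, with a median Pearson r of 0.226 and a range from -0.332 to 0.89. Fcgbp and Sytl2 gave the highest value, followed by Zg16 with Bcas1 at 0.877 and Fcgbp with Agr2 at 0.846. Tff3 and Spink4, the pair with the shortest models, varied together (0.725), and both ran against Spdef (-0.332 and -0.299). In cKO_DSS 3 and 4 the ratio of Spink4 to Agr2 in FPKM was 0.6003 and 0.6505, against 0.855 in cKO_DSS 2, 1.37 in cKO_DSS 1 and 1.285 to 1.585 in control libraries after DSS. These correlations are descriptions over libraries that share their groups, depth and base composition.

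The genes most like the average of the 10 within groups, by Pearson r with their mean deviation over 16 libraries, were Rasd2 (0.919), Zmym6 (0.913), Fer1l6 (0.895), Cdk17 (0.884) and Clca1 (0.876) among protein-coding genes. Clca1 encodes a secreted protease of goblet cells that acts on the mucus, and it was the most abundant of these at a mean of 2033 FPKM. It was at 1729 ± 1067 FPKM in control and 1273 ± 515 in cKO on water, and at 2376 ± 642 and 2754 ± 626 FPKM after DSS. Its DSS difference in cKO was +1.17 ± 0.38 SE, just beyond the threshold (adjusted p = 0.0515), with the groups apart. It was +0.63 ± 0.38 SE in control (adjusted p = 0.225).

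The wider goblet cell programme was read from 4 more lists of 73 genes, 67 of them tested. With DSS in cKO 28 rose and none fell, and with DSS in control 19 rose and 6 fell. Over all genes 8.07% rose and 6.64% fell with DSS in cKO, and 15.0% rose and 13.5% fell in control. The control counts of lineage factors with Notch genes, and of folding and release genes, thus lay near those of all genes. Between genotypes 1 rose after DSS and none on water, where 14 had an unadjusted p under 0.05 and limma voom called 0. The median log2 difference of the 67 was +0.33 with DSS in cKO and +0.15 with DSS in control, against -0.01 over all genes in each. The lists share libraries with the 10 genes and describe the same samples. They too were chosen with earlier results of these data known, so their counts beside those of all genes are not a test.

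The list for mucin O-glycosylation holds enzymes, the transporters Slc26a2 and Slc35a2, the chaperone gene C1galt1c1 and Fut8, an enzyme of N-linked sugars. Of its 22 tested genes, 10 rose with DSS in cKO and 8 in control, with none lower in either. C1galt1, which makes the core 1 structure, rose by 0.68 ± 0.16 SE in cKO and 0.88 ± 0.16 SE in control, and its chaperone C1galt1c1 by 0.52 ± 0.16 SE and 0.80 ± 0.16 SE. The galactosyltransferase B3galt5 (+0.68 ± 0.08 SE and +0.498 ± 0.08 SE) and the initiating transferase Galnt3 (+0.70 ± 0.10 SE and +0.62 ± 0.10 SE) rose in both. Galnt10, another initiating transferase, rose in cKO (+0.55 ± 0.11 SE, adjusted p = 0.0044; +0.06 ± 0.11 SE in control). Galnt12, called with DSS in cKO only, thus stood among other first-step transferases, of which Galnt4 rose in both genotypes (+0.44 ± 0.10 SE in cKO and +0.40 ± 0.10 SE in control). The rest, named after their values were seen, were mixed. Galnt7 rose in cKO (+0.56 ± 0.13 SE), but Galnt1 (+0.23 ± 0.14 SE), Galnt5 (+0.42 ± 0.21 SE) and Galnt6 (+0.12 ± 0.14 SE) were not called there.

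Of the folding and release genes, 8 of 19 rose with DSS in cKO and none fell, and 4 rose and 2 fell in control. The sulfhydryl oxidase Qsox1 rose in cKO (+0.90 ± 0.13 SE), as did Nlrp6, an innate sensor tied to mucus secretion (+0.53 ± 0.08 SE in cKO and +0.59 ± 0.08 SE in control), and the calpain Capn9 (+0.87 ± 0.20 SE, adjusted p = 0.0101). Stxbp2 (-0.61 ± 0.13 SE) and the priming factor Unc13d (-0.43 ± 0.12 SE) fell in control. Unc13d, with Bcas1, was also higher in cKO than in control after DSS (7.37 against 4.38 FPKM; +0.64 ± 0.12 SE, adjusted p = 0.0105).

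Of the other secreted products, 5 of 11 tested rose with DSS in each genotype, and 1 was lower in control. Retnlb, an antibacterial resistin-like protein of goblet cells, went from 908 to 1869 FPKM in control (+1.19 ± 0.32 SE, adjusted p = 0.0148) and from 397 to 1039 FPKM in cKO (+1.37 ± 0.32 SE, adjusted p = 0.011). Lypd8, which binds flagellated bacteria, rose by 0.70 ± 0.17 SE and 0.57 ± 0.17 SE and is made by absorptive cells too. The phospholipase Pla2g10 rose by 0.53 ± 0.10 SE in control and 0.45 ± 0.10 SE in cKO. The chemokine Ccl9 rose in control (+0.78 ± 0.15 SE, adjusted p = 0.0029) and in cKO (+0.49 ± 0.15 SE, adjusted p = 0.0389). The 1 gene that fell in control, named after its values were seen, was Guca2a, which encodes the hormone guanylin (-0.51 ± 0.15 SE).

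The list of secretory lineage factors holds 15 genes, transcription factors together with the Notch pathway genes Notch1, Dll1 and Dll4. Of these 15, 5 rose and none fell with DSS in cKO, and 2 rose and 3 fell in control. In cKO, Atoh1 (26.5 to 39.3 FPKM; +0.56 ± 0.15 SE, adjusted p = 0.0215), Foxa3 (+0.70 ± 0.14 SE), Elf3 (+0.66 ± 0.10 SE) and Xbp1 (+0.54 ± 0.09 SE), which supports secretory capacity, rose beside Spdef. In control, Xbp1 (+0.28 ± 0.09 SE) and Elf3 (+0.29 ± 0.10 SE) rose, and Hes6 (-0.53 ± 0.15 SE) and the Notch target Hes1 (-0.59 ± 0.13 SE) fell. Gfi1, which acts in secretory lineage choice and was named after its values were seen, was at +0.71 ± 0.22 SE in cKO (adjusted p = 0.0413) and -0.62 ± 0.22 SE in control (adjusted p = 0.0463), called in opposite directions. Its interaction was +1.32 ± 0.31 SE (adjusted p = 0.0701), and none of the 15 was called in the interaction in limma or limma voom.

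**Figure D4:**
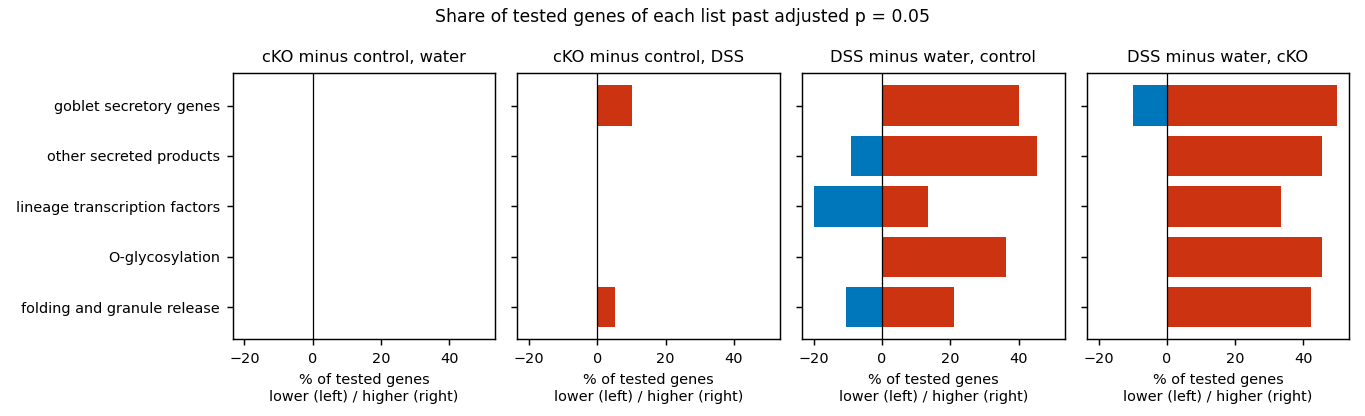
Share of the tested genes of 5 lists that were called higher (red, right) or lower (blue, left) in 4 comparisons. In cKO with DSS the higher shares come from 5 of 10 goblet secretory genes, 5 of 11 other products and 8 of 19 folding and release genes. They also come from 5 of 15 lineage factors with Notch genes and 10 of 22 glycosylation genes. On water no bar is drawn because none was called.

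Markers of other cells moved in the same comparisons. Of 7 tested stem and progenitor markers, 6 fell with DSS in cKO and 2 in control, and their summed level was 110 to 132 FPKM in cKO on water and 66.8 to 89.5 FPKM in cKO after DSS, against 82.4 to 98.7 and 81.6 to 96.1 FPKM in control. Of 8 enteroendocrine markers, another secretory type that arises through ATOH1, 6 rose and none fell in cKO and 4 rose and 1 fell in control, with sums of 85.1 to 101 FPKM in cKO on water and 148 to 185 FPKM in cKO after DSS. Absorptive markers had 1 higher and 1 lower of 13 in each DSS comparison. Of fibroblast markers, 5 of 5 tested rose in control and 4 of 5 in cKO. Their sums were 4.85 to 7.29 FPKM on water and 14.3 to 17.4 FPKM after DSS in control. In cKO the sums were 6.52 to 7.99 and 11.1 to 13.1 FPKM. Low markers could pass the filter through their DSS libraries alone, which favours rises among those tested. Col3a1 went from a mean of 0.446 to 1.43 FPKM in cKO and Col1a1 from 0.505 to 1.08 FPKM. Dcn and Vim had means above the filter value in cKO on water, at 2.40 and 2.48 FPKM. Macrophage and neutrophil markers rose in 3 of 4 tested in each genotype, with 1 lower in control. C1qb, at 0.319 FPKM in cKO on water and 0.972 FPKM after DSS, is also such a low marker. S100a9 and Mzb1, markers of neutrophils and plasma cells, were listed at 0 on water in both genotypes and in cKO after DSS. S100a8 had a mean of 0.0693 FPKM in control on water. Jchain, the 1 B cell and plasma cell marker tested, was at 0.475 FPKM in control and 0.823 FPKM in cKO on water. It rose with DSS in control (+0.64) and was not called in cKO (-0.33, limma adjusted p = 0.376). Paneth cell markers summed to 103 FPKM in cKO library 1 on water, the library with the highest Muc2 of its group, against 1.15 to 12.4 FPKM in the other 15 libraries. The part of these cells in the results for the 10 genes was not tested.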

How the data were processed

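RNA-seq of 16 mouse colon epithelial libraries was read as gene-level FPKM, one column per library, from a table deposited by the authors. Per the submitters' processing notes, reads were counted with featureCounts 1.5.0-p3 on mm10, and DESeq2 1.20.0 is also named. No source used here gives the aligner, annotation or strand setting. FPKM multiplied by gene length gave whole reads for 100% of values (tolerance 0.05 of a read), 13911823 to 16414914 per library.

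Genes at or above 1 FPKM in at least 4 libraries were kept (13255). Log2(FPKM + 1) was fitted in limma 3.58.1 (R 4.3.3) with 4 group means, a trended prior and two-sided tests for 5 comparisons, with Benjamini-Hochberg adjustment over all kept genes and calls under 0.05. The script was checked on simulated data. Other fits included limma voom on the recovered reads, GC and length corrections (97.1% of kept genes had a GC value), a replicate block, a Y-linked covariate and each library left out. Libraries of a group differed by more than counting noise in every pair. All 10 members are named. From the other goblet lists up to 4 called genes with the smallest p per list and comparison are named, with further genes marked as chosen after their values were seen. The result of 1 listed gene is not reported here. The members and lists were chosen with earlier results of these data known. Promoters came from RefSeq.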

Additional observations from a re-analysis of the deposited data

Results flagged for a closer look

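Each of the 10 genes was examined in each of the 4 groups for a library far from its 3 fellows, by the gap to the nearest value as a share of the group's range (Dixon's test at the 95% level). Of the 40 sets, 4 held such a library, and chance marks about 1 in 20. Muc2 was at 8.70 FPKM in cKO library 1 on water, with the other 3 between 3.43 and 4.21 FPKM. The same library had a sum of Paneth cell markers of 103 FPKM, against 1.15 to 3.48 FPKM in those 3, and the part of such cells was not tested. In cKO library 2 on water, Zg16 was at 629.96 FPKM and Bcas1 at 20.9 FPKM, while the other cKO libraries on water had at most 328 and 13.7 FPKM. Bcas1 was at 18.7 FPKM in control_DSS library 3, with the others between 14.9 and 15.04 FPKM.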

How the results depend on the processing

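The 10 genes were refitted under 31 alternatives, giving 1540 gene values, of which 69 lost a call and 53 gained one. In 34 the sign changed, all of values called in neither fit, and 5 of these, given below, moved by more than their SE. Counts of the 10 genes called were 0 between genotypes on water, 1 between genotypes after DSS, 4 with DSS in control, 6 with DSS in cKO and 0 for the interaction. On water the count was 1 with a 5 FPKM filter, a median shift or sample quality weights. Between genotypes after DSS it was 2 with the 5 FPKM filter, median shift, limma voom, GC correction, length correction or Y-linked covariate, 6 with quality weights (3485 of all 13255 genes, against 491), and 0 with no filter, or when either cKO_DSS 3 and 4 or control 4 with control_DSS 2 were left out. With DSS in control it was 1 with no filter and 2 with quantile normalization or only the 8 libraries compared. It was 0 with the Y-linked covariate (193 of all genes, against 3778) or without control 4 and control_DSS 2 (1452 of all genes). With DSS in cKO it was 0 with the Y-linked covariate (94 of all genes, against 1950), and the interaction had 4 with quality weights. Leaving out 1 library at a time gave 0 to 1 on water, 0 to 4 between genotypes after DSS, 1 to 4 with DSS in control, 5 to 7 with DSS in cKO and 0 to 2 for the interaction. With the Y-linked covariate Fcgbp reversed to -0.65 and Zg16 to -0.55 with DSS in control, and to -0.047 and -0.35 with DSS in cKO. Without cKO_DSS 3 and 4, Tff3 reversed to +0.41 with DSS in cKO. None of these 5 values was called in either fit. The cause was not tested.

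With the replicate block 2 genes were called between genotypes after DSS, Bcas1 and Sytl2, as with the block and GC correction together. Same-numbered libraries correlated between -0.199 and 0.2995 (median 0.0174), so the numbers are not shown to pair samples. An interaction could not be fitted on 8 libraries. Depth limits Muc2, at 150 to 998 reads, most.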
